A study of Sus scrofa with 10 samples.

Results

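The neighbourhood examined here is a run of 7 genes on chromosome 14 of the pig, from SETD1B to RNF34, with KDM2B and TMEM120B in it. Its members are KDM2B, RNF34, ORAI1, MORN3, TMEM120B, RHOF and SETD1B, and they were chosen by their place beside each other with the AL against BI differences in normalised count, and the covariation over the 10 pigs, already known. Of the 7 genes, 6 had a row among the 25880 genes of the deposited table, and 5 of those reached a mean normalised count of 10 over the pigs, the level at which 3566 genes were tested. SETD1B was not analysed here, and MORN3 stayed under that level. The normalised count of a gene is its number of reads divided by a size factor for the depth of each library. The strand setting of the counting is not given in the sources used here. Any count here may therefore hold, in part or in whole, reads of the strand opposite to the named gene, which was not tested. Levels and breed differences below are those of the counts under each gene name, also for TMEM120B and RHOF, whose ends overlap. Because the breed contrast chose the genes, their levels are described with no test.

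RNA of the longissimus lumborum, the loin muscle along the spine, was sequenced in 10 purebred castrated male pigs of 2 Portuguese breeds. The group of Alentejano pigs (AL) held 5 animals, numbered 44, 46, 49, 52 and 63, and the group of Bísaro pigs (BI) held 5 animals, numbered 25, 34, 36, 37 and 42. Each pig gave 1 library. Pigs of both breeds were reared free-range on commercial diets, and the labels give a carcass weight of 150 kg for all 10. Neither group had a treatment, so breed is the only contrast, and ages were not given in the sources used here. The tissue is whole muscle, in which fewer cells of a type and less RNA per cell cannot be told apart.

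The genes of this neighbourhood have unlike roles. KDM2B is a histone lysine demethylase with a zinc finger that binds unmethylated CpG, the step of a C followed by a G, and it brings a variant Polycomb complex to CpG-rich promoters. SETD1B is a histone methyltransferase that marks active promoters. TMEM120B, like its relative TMEM120A, is a membrane protein of the nuclear envelope that has been tied to the differentiation of adipocytes. RHOF is a small GTPase that drives the formation of filopodia through formins. ORAI1 is the pore of the channel that lets calcium into cells when the internal stores are empty, a pathway active in skeletal muscle. RNF34 is a RING-type ubiquitin ligase, and the coactivator of mitochondrial genes PPARGC1A is a known substrate. MORN3 is a small protein of MORN repeats, best known from testis.

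The libraries held between 2298045 reads on genes (AL44) and 3343194 (BI25), with medians of 2513854 in AL and 2885579 in BI. The paper reports far more sequenced reads per sample, nearly all of them aligned. The reason for this gap was not tested. The 10 genes with the most reads took 48.5% of the reads of AL44 and between 55.1% and 60.3% in the other pigs. Of 12 muscle fibre markers listed, TTN, MB, MYH1, MYH2, MYH4, MYH7 and MYLPF had no row under their symbols. AL44 also had the lowest sum of the 5 muscle fibre markers in the table (ACTA1, CKM, DES, TNNT3 and TNNI2). That sum ran from 16361 to 33791 normalised counts in AL and from 29699 to 47801 in BI. The 6 adipocyte markers summed to between 67.0 and 148 in AL and between 66.5 and 175 in BI, with ADIPOQ and LEP at or near 0. The 4 fibroblast markers gave 14.2 to 101 in AL and 16.5 to 42.3 in BI, and the 3 endothelial markers with a row gave 3.24 to 16.7 and 2.2 to 9.88. The 5 leukocyte markers summed to 246 to 382 in AL and 244 to 389 in BI, with CD3E and LYZ at 0, and the 3 smooth muscle and pericyte markers to 12.5 to 28.1 and 12 to 25.4. The breeds overlapped in each of these 6 sums. The adipocyte sum rested mostly on PLIN4 (mean 89.6 over the 10 pigs) and the leukocyte sum on CSF1R (276). In these 2 lists, 4 adipocyte and 3 leukocyte markers had means under 3. The sums therefore do not show like fat or immune cell content, and the paper reports more intramuscular fat in AL. The part of cell make-up in the levels below was not tested. Since AL44 stands apart, values without it are given where they bear on a result.

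The 7 genes alternate in strand and span 367 kb of Sscrofa11.1, from base 30862155 to base 31229529. SETD1B (30862155 to 30885592, minus strand) and RHOF (30886053 to 30908048, plus strand) start 460 bases apart and run away from each other. TMEM120B (30901813 to 30957350, minus strand) runs into RHOF, so that the ends of the 2 genes overlap by 6236 bases. MORN3 (30991897 to 31006578, plus) and ORAI1 (31012212 to 31028008, minus) lie between TMEM120B and KDM2B without overlapping either. KDM2B (31057121 to 31203093, plus) is the longest of the 7, and its end overlaps that of RNF34 (31202030 to 31229529, minus) by 1064 bases. Between TMEM120B and KDM2B lie 99.8 kb.

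**Figure D1:**
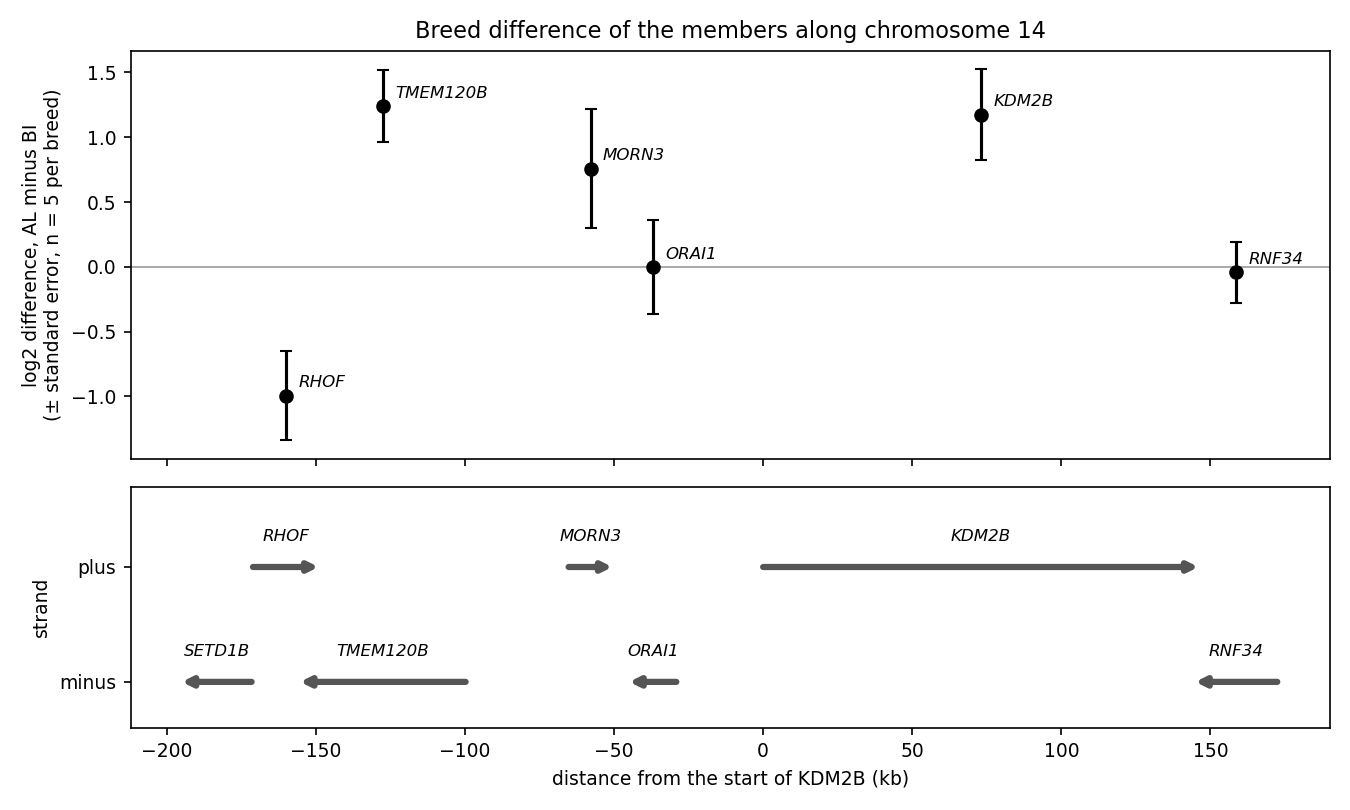
Genes of the neighbourhood by distance in kb from the start of KDM2B, with arrows in the direction of transcription on each strand (lower panel), and the log2 difference between breeds, AL minus BI, with its standard error (n = 5 pigs per breed, upper panel). KDM2B (1.17) and TMEM120B (1.24) lie above 0, RHOF (-1.0) lies below it, and ORAI1 and RNF34 lie at it, while SETD1B has no value.

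The 250 bases before the annotated 5′-most start of KDM2B, TMEM120B and RHOF are shown, since CpG-rich promoters are where KDM2B is known to bind. Many annotated RHOF transcripts and a further group of KDM2B transcripts start downstream of these points. They are from the Sscrofa11.1 assembly, on the strand of each gene and 5′ to 3′, with each CG step in capitals. They lie at chr14:31056871-31057120 on the plus strand for KDM2B, at chr14:30957351-30957600 on the minus strand for TMEM120B and at chr14:30885803-30886052 on the plus strand for RHOF.
KDM2B: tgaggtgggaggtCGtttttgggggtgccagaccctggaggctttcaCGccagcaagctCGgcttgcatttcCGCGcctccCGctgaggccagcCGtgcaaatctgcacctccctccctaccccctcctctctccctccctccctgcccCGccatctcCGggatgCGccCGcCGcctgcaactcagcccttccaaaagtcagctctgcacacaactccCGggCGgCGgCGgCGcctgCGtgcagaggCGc
TMEM120B: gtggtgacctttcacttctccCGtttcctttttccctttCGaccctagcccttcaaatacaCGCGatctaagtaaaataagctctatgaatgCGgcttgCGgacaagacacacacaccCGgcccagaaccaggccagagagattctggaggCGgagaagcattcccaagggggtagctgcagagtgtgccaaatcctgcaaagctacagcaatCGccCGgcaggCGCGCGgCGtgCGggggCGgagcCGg
RHOF: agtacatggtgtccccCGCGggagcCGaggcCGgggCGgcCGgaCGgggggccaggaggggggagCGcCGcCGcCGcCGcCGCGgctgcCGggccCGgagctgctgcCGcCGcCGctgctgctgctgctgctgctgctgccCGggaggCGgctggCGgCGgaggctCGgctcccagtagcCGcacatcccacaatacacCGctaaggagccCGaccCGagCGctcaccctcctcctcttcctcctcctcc

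The KDM2B stretch held 19 CG steps, that of TMEM120B 17 and that of RHOF 29, against a median of 12 over the same stretch of 19498 annotated genes. At least as many were found before 32.6% of all genes for KDM2B, 37.7% for TMEM120B and 13.3% for RHOF. ORAI1 had 33, RNF34 29 and SETD1B 41, which 8.68%, 13.3% and 3.05% of genes reach. MORN3 had 9, fewer than the median. KDM2B and TMEM120B had fewer CG steps in this window than RHOF, ORAI1, RNF34 and SETD1B, and the window says nothing of methylation, which was not measured.

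KDM2B (ENSSSCG00000029803) was the member with the most reads, and its levels were higher in AL in most but not all pigs. The AL pigs had 788, 550, 739, 516 and 844 normalised counts in AL44, AL46, AL49, AL52 and AL63. The BI pigs had 269, 346, 608, 270 and 154 in BI25, BI34, BI36, BI37 and BI42. BI36 lay above AL46 and AL52, so the breeds overlapped, and the other 4 BI pigs lay below every AL pig. The mean was 687 ± 146 in AL and 329 ± 170 in BI (SD, n = 5 each). On the log2(normalised count + 1) scale, which is used for all differences here, AL was higher by 1.17 (SE 0.35), a 2.26-fold difference, and without AL44 by 1.12. The spread was also unlike between the breeds, since KDM2B varied 1.64-fold from the lowest to the highest AL pig and 3.94-fold among BI pigs.

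TMEM120B (ENSSSCG00000009808) was higher in all AL pigs than in any BI pig, by about as much as KDM2B. Its normalised counts were 118, 148, 123, 225 and 169 in AL44, AL46, AL49, AL52 and AL63. They were 66.7, 38.6, 102, 58.1 and 69.7 in BI25, BI34, BI36, BI37 and BI42. AL44 and BI36 were the nearest pigs of the breeds. The means were 156 ± 43.4 in AL and 67.0 ± 22.9 in BI (SD, n = 5 each), a log2 difference of 1.24 (SE 0.28) or 2.36-fold, and 1.33 without AL44. TMEM120B was the only 1 of the 5 tested members without overlap between the breeds, where 1.71% of the 3566 tested genes had none. Since the contrast is the one that chose the gene, nothing is read from that count. A difference at least as wide towards AL was seen in 40 tested genes (1.12%) for TMEM120B and in 45 (1.26%) for KDM2B.

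RHOF (ENSSSCG00000009807), whose end lies within TMEM120B, had the opposite order. The AL pigs had 226, 81.8, 147, 143 and 242 normalised counts in AL44, AL46, AL49, AL52 and AL63, and the BI pigs 264, 409, 428, 200.4 and 324 in BI25, BI34, BI36, BI37 and BI42. Only BI37 reached into the range of AL, below AL44 and AL63. With means of 168 ± 65.8 in AL and 325 ± 96.0 in BI (SD, n = 5 each), the log2 difference was -1.0 (SE 0.34), so that BI was 1.99-fold higher. It was -1.13 without AL44 and -0.76 without AL46, the pig with the lowest value. Of the tested genes, 59 (1.65%) differed at least as far towards BI.

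ORAI1 and RNF34, which lie nearest to KDM2B on its left and right, had like means in the 2 breeds. ORAI1 (ENSSSCG00000034510) had 20.8, 27.9, 27.0, 24.9 and 43.0 normalised counts in the AL pigs and 23.1, 54.0, 13.8, 38.1 and 25.4 in the BI pigs, in the order used above. The log2 difference was -0.00 (SE 0.36), and BI34 and BI36 held both the highest and the lowest value. RNF34 (ENSSSCG00000037811) had 25.5, 27.9, 36.7, 37.4 and 36.2 in AL and 27.2, 31.9, 24.1, 56.1 and 34.9 in BI. Its log2 difference was -0.04 (SE 0.23), and the highest pig was BI37. The sign of both differences turned on single pigs, and with 9 of the 10 animals the range was -0.24 to 0.23 for ORAI1 and -0.16 to 0.14 for RNF34. ORAI1 had 298 reads and RNF34 344 over all 10 libraries.

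MORN3 (ENSSSCG00000009809) was at the limit of detection. It had 1.89, 1.86, 2.16, 5.34 and 10.2 normalised counts in AL44, AL46, AL49, AL52 and AL63, and 3.29, 1.1, 2.59, 1.0 and 1.06 in BI25, BI34, BI36, BI37 and BI42. These rest on 31 reads in all 10 libraries, and 3 reads are worth between 2.47 and 3.39 normalised counts depending on the library. AL52 and AL63 lay above all BI pigs and the other 3 AL pigs within their range. The log2 difference of 0.76 (SE 0.46) fell to 0.43 without AL63.

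**Figure D2:**
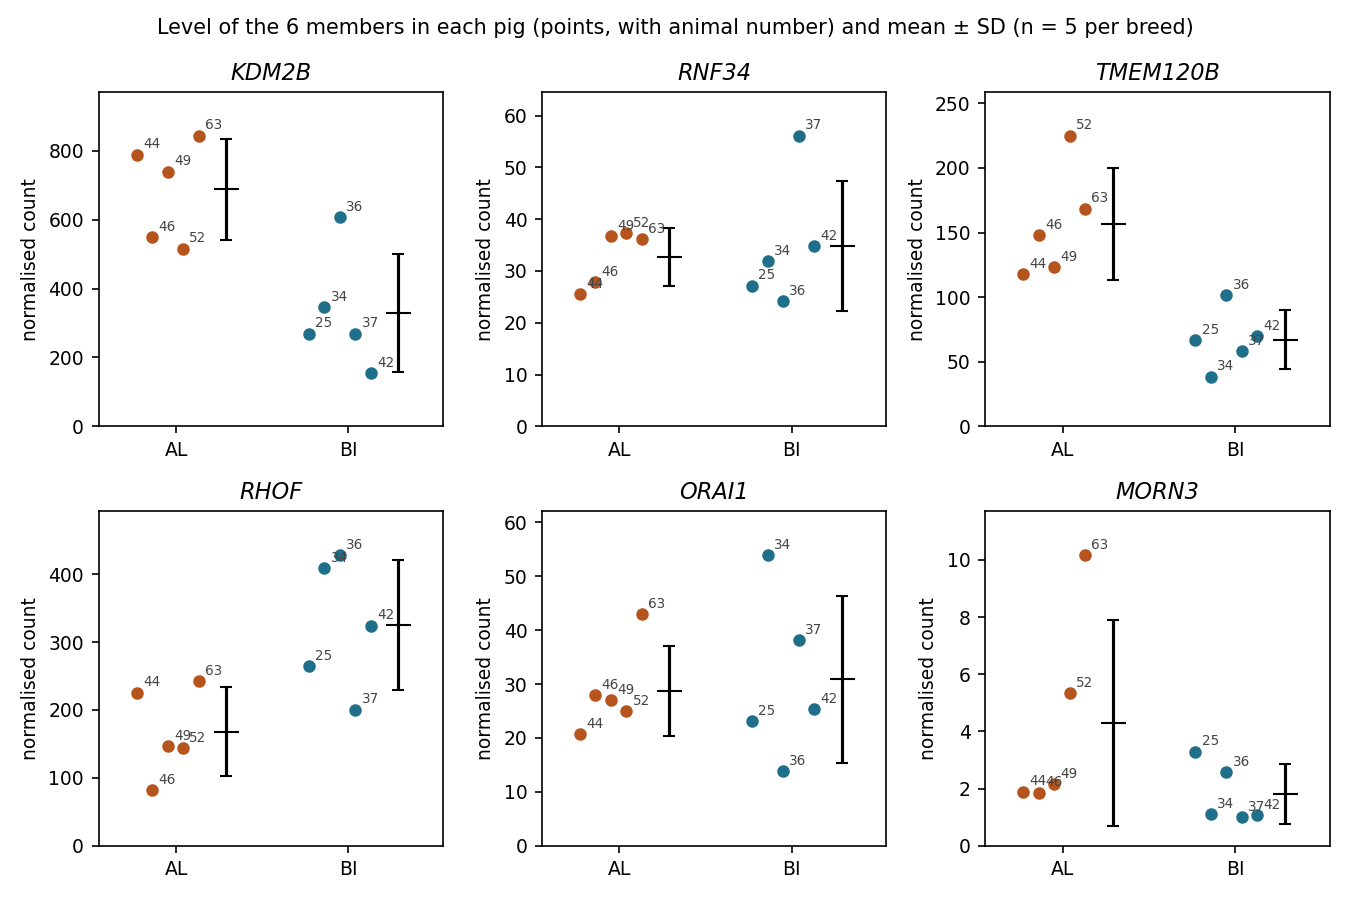
Normalised counts of the 6 members in each pig (points, with the animal number), and the mean and SD of each breed (black, n = 5). The breeds are apart for TMEM120B, overlap through BI36 for KDM2B and through BI37 for RHOF, and lie on each other for RNF34 and ORAI1.

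Per kb of annotated exon, KDM2B had the highest level of the members. It reached 83.2 ± 17.7 normalised counts per kb in AL and 39.8 ± 20.6 in BI (SD, n = 5 each). ORAI1, a short transcript, came next in both breeds with 27.8 ± 8.18 in AL and 29.9 ± 15.1 in BI. In AL, TMEM120B (16.1 ± 4.47), RHOF (14 ± 5.49) and RNF34 (11.7 ± 2.0) followed within their spread of each other. In BI, RHOF stood at 27.2 ± 8.02, within the spread of ORAI1 and KDM2B, ahead of RNF34 at 12.5 ± 4.50 and TMEM120B at 6.91 ± 2.36. MORN3 was last with 3.49 ± 2.94 in AL and 1.47 ± 0.87 in BI. By these lengths TMEM120B and RHOF had like levels per kb in AL, and RHOF the higher one in BI. The lengths join the RefSeq exons of all transcripts of a gene (9691 bases for TMEM120B and 11978 for RHOF). Reads were counted on Ensembl models, so the order between genes depends on the lengths taken.

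The make-up of the reads of the neighbourhood differed accordingly. KDM2B took between 54.2% and 68.8% of the summed normalised counts of the 6 members in AL pigs and between 25.3% and 51.6% in BI pigs. RHOF took between 9.77% and 19.1% in AL and between 32.2% and 53.2% in BI. TMEM120B had a median share of 12.5% and a highest of 23.6% in AL, and a median of 9.32% and a highest of 11.4% in BI. The ranges of the shares of KDM2B and RHOF did not meet, and those of TMEM120B overlapped. In their own normalised counts KDM2B and RHOF both overlapped between the breeds. The shares of a pig add up to a whole, so a higher share of 1 gene lowers the others. They also use the contrast that chose the genes, and nothing is read from the gap. The sum over the 6 genes was 1078 ± 197 in AL and 789 ± 244 in BI (SD, n = 5 each).

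TMEM120B and RHOF share 1854 exon bases on opposite strands, between bases 30905210 and 30908048, which is 19.1% of the exon bases of TMEM120B and 15.5% of those of RHOF. The libraries were stranded, but the strand setting of the counting is not given in the sources used here. Without it reads from this stretch cannot be told apart between the 2 genes. Nor can the counts of either gene be assigned to its own strand along the rest of its length. The share of TMEM120B in the reads of both genes does not depend on the scaling of a library. It was 34.3%, 64.4%, 45.6%, 61.1% and 41.0% in AL44, AL46, AL49, AL52 and AL63. In BI25, BI34, BI36, BI37 and BI42 it was 20.1%, 8.62%, 19.2%, 22.5% and 17.7%. The lowest AL pig, AL44, lay above the highest BI pig, BI37, and the means of 49.3 ± 13.0% and 17.6 ± 5.33% (SD, n = 5 each) were 31.7 percentage points apart (SE 6.27). The summed normalised counts of the 2 genes were 324 ± 73.6 in AL and 392 ± 104 in BI, a log2 difference of -0.26 (SE 0.23), with ranges of 230 to 411 and 259 to 530 that overlapped.

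Over the genome, 263 pairs of tested genes share exon bases on opposite strands. In 39.2% of them the 2 genes differed between the breeds in opposite directions, as TMEM120B and RHOF did. The log2 differences of TMEM120B and RHOF were 2.23 apart, where the median pair was 0.23 apart and 2 pairs (0.760%), TMEM120B and RHOF among them, reached that distance. The read share did not overlap between the breeds in 3 pairs, or 1.14%. These values describe the pair against others of its kind and use the contrast that chose it.

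KDM2B and RNF34 share far less, 211 exon bases from 31202030 to 31202240, which is 2.55% of the exon bases of KDM2B and 7.54% of those of RNF34. KDM2B held 96.9%, 95.2%, 95.3%, 93.2% and 95.9% of the reads of both genes in AL44, AL46, AL49, AL52 and AL63. It held 90.8%, 91.5%, 96.2%, 82.8% and 81.6% in BI25, BI34, BI36, BI37 and BI42. BI36 lay among the AL pigs and the other 4 BI pigs below them. The means were 95.3 ± 1.33% in AL and 88.6 ± 6.22% in BI (SD, n = 5 each), 6.71 percentage points apart (SE 2.84).

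**Figure D3:**
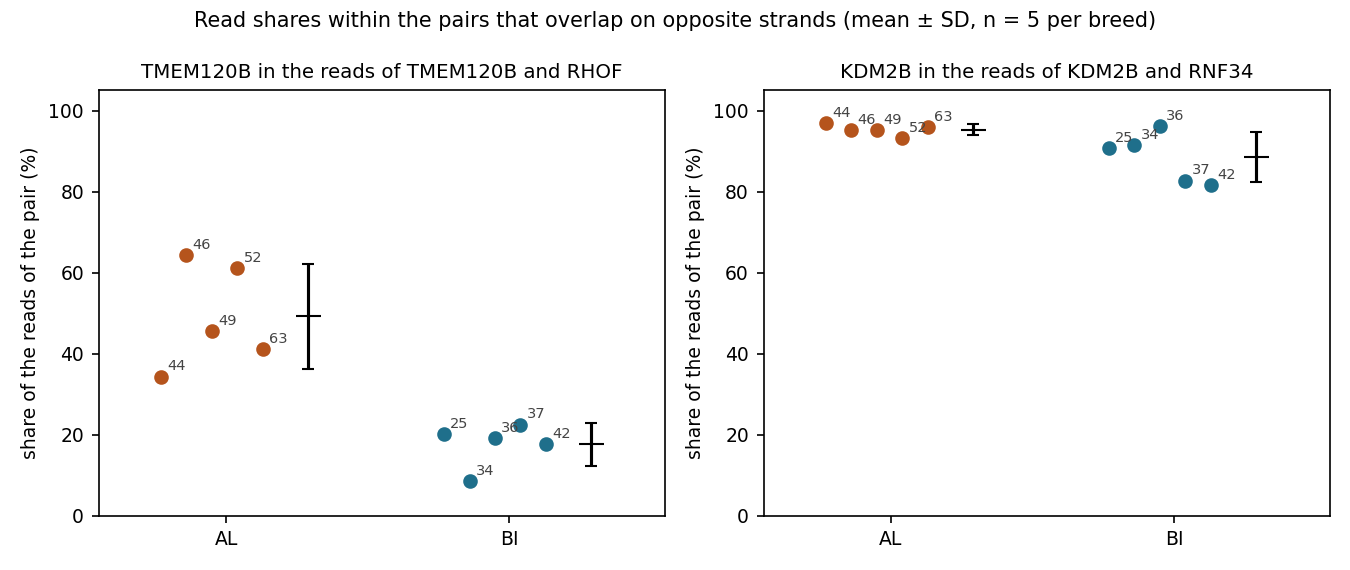
Share in % of the reads of each overlapping opposite-strand pair that fell on TMEM120B (left) and on KDM2B (right), in each pig (points, with the animal number), with the mean and SD of each breed (n = 5). The share of TMEM120B lies between 34.3% and 64.4% in AL and between 8.62% and 22.5% in BI, while BI36 lies among the AL pigs for KDM2B.

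Covariation of the members was described by Pearson r and the Spearman rank coefficient of the log2 levels over the 10 pigs, for the 15 pairs of the 6 genes in the table. KDM2B and TMEM120B had r = 0.67 and a rank coefficient of 0.61, and r was 0.70 without the 2 pigs farthest from the median of KDM2B. After the mean of each breed was subtracted, their r was 0.07 and their rank coefficient -0.07. Within single breeds their r had opposite signs, -0.58 in AL and 0.30 in BI (n = 5 each). The pooled value includes the breed difference of both genes, and the centred one does not. Among all pairs of tested genes, 4.16% had an r of at least that of KDM2B and TMEM120B, and among the 2387 pairs no farther apart than these 2 genes, 7.75%. After centring, 44% of all pairs and 54.8% of the near pairs had an r of at least theirs.

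TMEM120B and RHOF had r = -0.60 and a rank coefficient of -0.60. After centring r was -0.00, and over pooled pigs it was -0.41 without AL52 and BI34, the 2 pigs farthest from the median of TMEM120B. KDM2B and RHOF went the other way, from r = -0.31 over all pigs to 0.52 within breeds, where pigs above their breed's mean in KDM2B tended to be above it in RHOF, and the pooled r was -0.13 without BI25 and BI42. ORAI1 and RNF34, on either side of KDM2B, had r = 0.57 both pooled and centred, and 0.34 without BI36 and BI37. ORAI1 and TMEM120B had -0.33 pooled and -0.61 centred, but the pooled r was 0.02 without BI34 and BI36, on which the negative value rests. Within single breeds the r of ORAI1 and TMEM120B was 0.29 in AL and -0.98 in BI. MORN3 and TMEM120B had 0.70 pooled, 0.58 centred and 0.47 without AL52 and AL63, on the 31 reads of MORN3.

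The 10 pairs of the 5 tested members had a median r of -0.16, and of -0.08 after centring. The median over all 6356395 pairs of tested genes was -0.00, and over the 2387 near pairs 0.12, or 0.13 after centring. With the pairs of MORN3 included, the median over 15 pairs was -0.12, and -0.01 after centring. These medians use the covariation known when the members were chosen and are given as a description. The levels of a pig come from 1 library and share its depth, and the r of the log2 level with the log2 number of reads on genes was -0.18 for KDM2B, -0.09 for TMEM120B, 0.18 for RHOF, -0.41 for RNF34, -0.33 for ORAI1 and 0.13 for MORN3. With the percentage of reads on the 10 highest genes it was -0.39 for KDM2B, -0.43 for TMEM120B, 0.27 for RHOF, 0.17 for RNF34, 0.46 for ORAI1 and 0.02 for MORN3. The part of depth in the covariation was not tested.

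**Figure D4:**
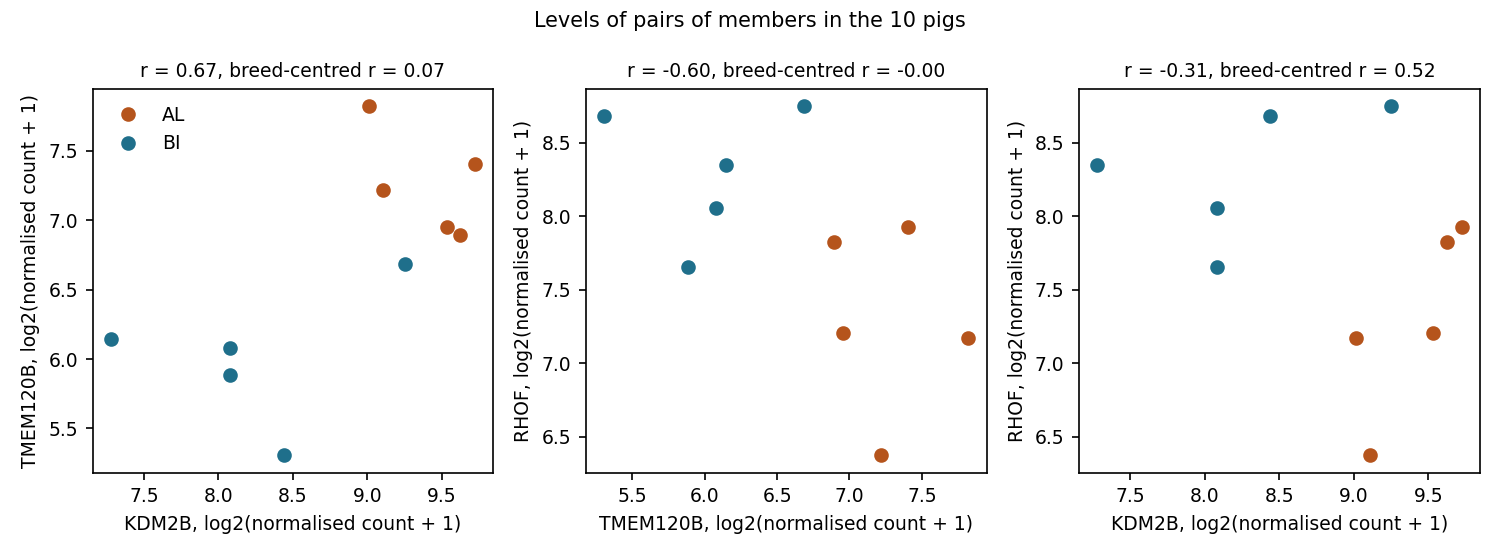
Levels of 3 pairs of members as log2(normalised count + 1) in the 10 pigs, AL in brown and BI in blue, with Pearson r before and after the breed means were subtracted. KDM2B and TMEM120B separate the breeds along 1 diagonal (r = 0.67, centred 0.07), and KDM2B and RHOF rise together inside each breed (centred r = 0.52).

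**Figure D5:**
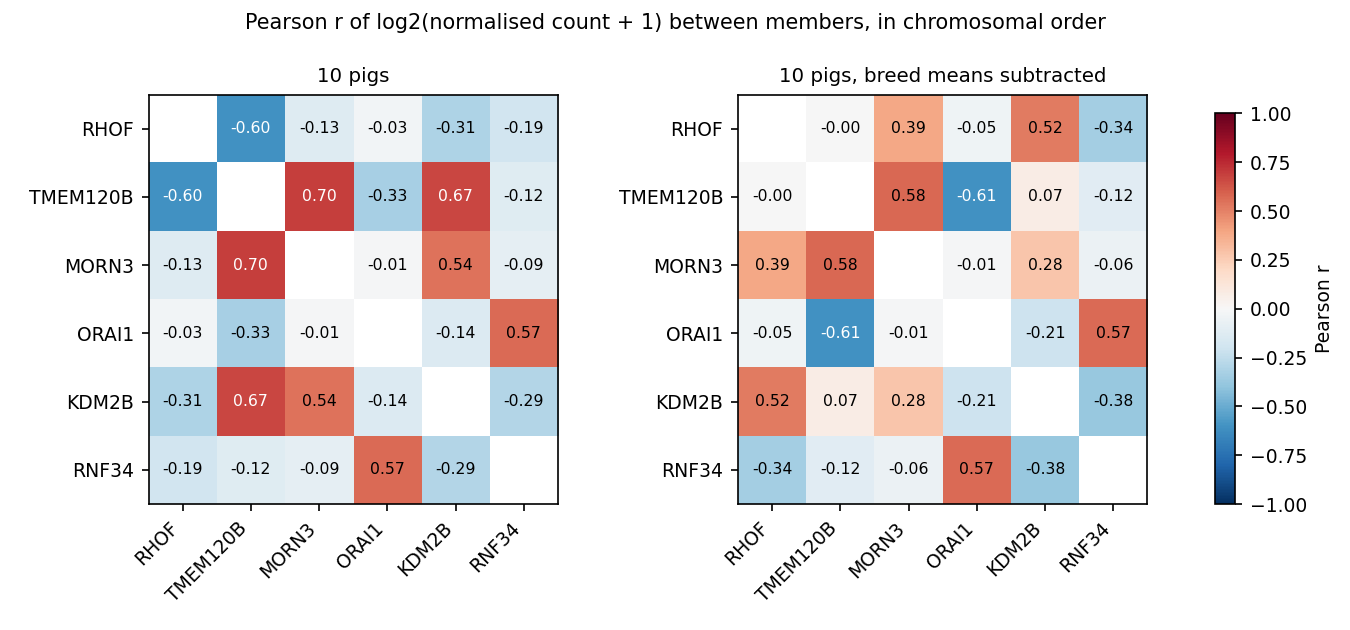
Pearson r between the 6 members in chromosomal order over the 10 pigs (left) and after the breed means were subtracted (right), on a colour scale from -1 to 1. The r of KDM2B and TMEM120B goes from 0.67 to 0.07, that of KDM2B and RHOF from -0.31 to 0.52, and that of ORAI1 and RNF34 is 0.57 in both panels.

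The genes whose levels were most like those of KDM2B were sought among 1320 genes with a symbol and a mean normalised count of at least 50. They were SH2D7 (r = 0.84), GUCD1 (0.83), KLB (0.82), SNCG (0.78) and OARD1 (0.77), over 10 pigs. For TMEM120B they were RUFY1 (0.94), NMRK2 (0.88), GNPAT (0.85), MPV17 (0.84) and ATCAY (0.80). After centring, r with KDM2B was 0.56 for SH2D7, 0.57 for GUCD1, 0.45 for KLB, 0.55 for SNCG and 0.67 for OARD1. With TMEM120B it was 0.83 for RUFY1, 0.73 for NMRK2, 0.79 for GNPAT, 0.54 for MPV17 and 0.38 for ATCAY. Each of these genes had a higher mean in AL, so the pooled r includes the breed difference. GUCD1, SNCG and GNPAT are on chromosome 14. The share of that chromosome among the 1320 genes is not given here, so nothing is read from their place. RNF34, ORAI1 and MORN3 lay under the count needed for this search.

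The next question was whether other genes of the region differed between the breeds. Within 500 kb of either end of the neighbourhood, 14 other annotated genes were in the table and 4 had a mean normalised count of 10. None of the 4 passed limma, DESeq2, edgeR or limma-voom at an adjusted p under 0.05, where limma called 1 (0.028%) and DESeq2 49 (1.37%) of the 3566 genes. At an unadjusted p under 0.05 limma gave 1 of the 4 and 8.55% of all genes. That neighbour was ATP2A2, the calcium pump of slow muscle fibres and heart, with 280 ± 115 normalised counts in AL and 149 ± 31.4 in BI (SD, n = 5 each), a log2 difference of 0.80 (limma SE 0.30). Its adjusted p was 0.418 in limma and 0.123 in DESeq2, and the exact two-sided permutation test of this gene gave p = 0.0714, or 0.286 after Benjamini-Hochberg adjustment over the 4 genes. CLIP1, which binds the growing ends of microtubules, differed by 0.23 (limma SE 0.25, adjusted p 0.857). VPS33A, of the lysosomal fusion machinery, differed by -0.32 (limma SE 0.48, adjusted p 0.904), and MLXIP, a glucose-responsive transcription factor of muscle, by -0.05 (limma SE 0.28, adjusted p 0.973). The other 10 neighbours had means of at most 2.44 normalised counts.

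Functional partners of the members were looked at in 7 lists of 68 genes, of which 61 were in the table and 17 were tested. Low counts of the others are not read as low expression in muscle, because few of the sequenced reads were counted on genes. The lists were chosen with earlier results of these data known, so the values below are descriptive and not independent evidence. None of the 17 passed limma, edgeR or limma-voom, 1 passed DESeq2 (1.37% of all tested genes did), and 4 had an unadjusted p under 0.05 in limma, all 4 higher in AL, where 4.63% of all tested genes were. The median log2 difference of the 17 was 0.10, with 11 higher in AL and 6 in BI, against -0.02 over all tested genes. None of the 17 was without overlap between the breeds, where 1.71% of all tested genes were.

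For the Polycomb partners of KDM2B, 1 of 10 genes reached the tested level. That was the deubiquitinase USP7, at 12.1 ± 3.13 normalised counts in AL and 11.2 ± 2.83 in BI, and the paralogue KDM2A lay just under it with 10.1 ± 3.56 and 9.36 ± 2.53 (SD, n = 5 each). For SETD1B, HCFC1 and SETD1A were the 2 partners tested. Their log2 differences were 0.13 (limma SE 0.27, adjusted p 0.931) and 0.47 (limma SE 0.28, adjusted p 0.693). Of these 2 chromatin lists 3 genes were tested, and none was called by limma, DESeq2, edgeR or limma-voom.

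For calcium entry, the inositol trisphosphate receptors ITPR1 and ITPR3 were the highest of the 4 genes tested around ORAI1. ITPR1 had 499 ± 164 normalised counts in AL and 260 ± 97.0 in BI (SD, n = 5 each), a log2 difference of 0.94 (limma SE 0.25). It had an adjusted p of 0.230 in limma and of 0.0470 in DESeq2, the single call in these lists. ITPR1 is also among the target molecules that the paper's functional analysis took from its own breed comparison of these pigs. ITPR3 had 671 ± 103 and 667 ± 126, a difference of 0.01 (limma SE 0.16, adjusted p 0.980). The sensor STIM1 and the relative ORAI2 were the other 2, and neither had an unadjusted p under 0.05.

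For the nuclear envelope, TMEM120A, the paralogue of TMEM120B, had nearly equal means in the breeds. It had 298 ± 47.0 normalised counts in AL and 299 ± 50.5 in BI (SD, n = 5 each), a log2 difference of -0.00 (limma SE 0.16, adjusted p 0.998). SUN1, which links the nuclear envelope to the cytoskeleton, differed by 0.29 (limma SE 0.21, adjusted p 0.752), with its highest value in AL44. LMNA, the gene of lamins A and C, had 42.5 ± 19.8 in AL and 24.0 ± 5.33 in BI, a log2 difference of 0.72 (limma SE 0.29, adjusted p 0.483). Of this list, 6 of 14 genes were tested.

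Around RHOF, 4 of 13 genes were tested, with 3 higher in AL and 1 in BI. DIAPH1, a formin, had 14 ± 7.5 normalised counts in AL and 6.55 ± 3.28 in BI, a log2 difference of 0.96 (limma SE 0.41, adjusted p 0.531). ARHGDIA had 45.1 ± 25.2 and 23.9 ± 6.41, a difference of 0.77 (limma SE 0.32, adjusted p 0.493). RAC1, another small GTPase of the list, differed by -0.13 (limma SE 0.25, adjusted p 0.930). None of the relatives and substrates of RNF34 or of the MORN repeat genes reached the tested level. RFFL and PPARGC1A had mean normalised counts of 4.57 and 1.52 over the 10 pigs, and MORN2 and MORN4 6.56 and 1.36.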

How the data were processed

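Total RNA of longissimus lumborum from 5 AL and 5 BI pigs was sequenced with stranded paired-end mRNA libraries, 1 per pig. Before deposit, the authors used Trim Galore 0.5.0 for trimming, HISAT2 2.1.0 for alignment on Sscrofa11.1 with Ensembl release 94, SAMtools 1.9 for conversion and HTSeq 0.11.1 for gene counts. The signal values the authors deposited are gene counts scaled by size factors in DESeq2, and so comparable between pigs but not between genes of unequal length. The deposited log2 fold changes, score columns (their standard errors and Wald statistics) and p-values hold the authors' own DESeq2 comparison of the breeds and were not used, nor was the deposited mean. No per-pig column was left unmapped.

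Dividing each column by its smallest value above 0 gave whole reads for 100% of values (within 0.01 read), 2298045 to 3343194 per pig. The 3566 genes whose normalised counts averaged 10 or more over the 10 pigs were tested with limma 3.58.1 (intensity trend, two-sided, Benjamini-Hochberg threshold 0.05) on log2(normalised count + 1), in R 4.3.3. Differences understate low genes. Printed standard errors of members are those of the difference of 2 means, and limma's where so named. DESeq2 1.42.0, edgeR 4.0.16 quasi-likelihood and limma-voom were run on the recovered reads as alternatives. The fits were first tested on simulated data, in which 200 of the 3566 genes were changed. There limma recovered 96% of the changed genes with a log2 difference of 2 and 57% of those with 1. DESeq2 recovered 98% and 63%. A gene that was not called may therefore still differ by about 1.

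Members and lists were chosen with earlier results of these data known. Named beside the 7 members were neighbours within 500 kb with a mean of 10, partners with an unadjusted p under 0.05 or no overlap and the 2 highest of each list, and the 5 genes most like KDM2B and TMEM120B. Positions and sequences are from RefSeq annotation release 106 on Sscrofa11.1, matched by symbol, while reads were counted on Ensembl models, which can differ from them in exons. The identifier of KDM2B was paired with its symbol through the study's supplementary list. The 10 pigs are separate animals, and p-values measure the spread between them. Batches or dates were not given in the sources used here. Other pseudocounts, filters, scalings, windows and sets of 9 pigs were tried.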

Additional observations from a re-analysis of the deposited data

Results flagged for a closer look

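In each breed, the highest and the lowest of the 5 pigs were set against the gap to the nearest other pig, for the 6 members, the 4 tested neighbours, the 17 tested partner genes and the 2 read shares. The gap exceeded Dixon's critical ratio of 0.71 in 5 of 58 groups, and chance alone flags about 1 in 20. None of the 6 members had such a value in either breed, BI36 for KDM2B included.

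Among the partners of ORAI1, ORAI2 had 85.9 normalised counts in AL44, where the other AL pigs had 10.7 to 22.6 (ratio 0.84), and ITPR1 had 429.6 in BI34, where the other BI pigs had 193 to 251 (ratio 0.76). Among the nuclear envelope genes, SUN1 had 1578 in AL44, where the other AL pigs had 776 to 978 (ratio 0.75). TMEM38A, a channel of the internal calcium stores, had 62.8 in BI34, where the other BI pigs had 23.2 to 34.6 (ratio 0.71). Around RHOF, ARHGDIA had 35.1 in BI37, where the other BI pigs had 19.8 to 23.2 (ratio 0.77).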

How the results depend on the processing

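Of 270 recomputed values, 258 stayed on their side of the threshold or within 1 SD (1 SE for r), and 12 moved. Within that spread the sign turned in 15, 8 of ORAI1, 3 of RNF34 and 4 of MLXIP. With breed means subtracted, r went from 0.67 to 0.0722 for KDM2B and TMEM120B and from -0.60 to -0.000767 for TMEM120B and RHOF. The count of genes called over all tested genes, 1 in limma, was 2 with a pseudocount of 10, 0 when both breeds had to average 50, 40 with no filter and 49 with DESeq2 on recovered reads, and lay between 1 and 38 when single pigs were left out (38 without AL44, 4 without AL52, 3 without BI36 and 4 without BI37). The causes were not tested. Partner genes called went from 0 to 1 with no filter and with DESeq2, and stayed at 0 with any 1 pig left out, with edgeR and with limma-voom. Without single pigs, the log2 difference of KDM2B ran from 0.94 to 1.43, of TMEM120B from 1.06 to 1.40 and of RHOF from -1.16 to -0.76. The AL minus BI difference in the TMEM120B share of the reads with RHOF ran from 27.9 to 35.4 percentage points. No paired analysis was possible because the 2 breeds share no animal numbers. With these reads on genes, 4 of 14 neighbours and 17 of 61 partners reached the tested level, and MORN3 did not.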
